A study of Rattus norvegicus with 12 samples.

Results

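Calcium buffers and neuronal calcium sensors are small cytosolic proteins that bind calcium through EF hands, helix-loop-helix motifs whose loop holds the ion. Parvalbumin (Pvalb), calbindin (Calb1) and calretinin (Calb2) are the classical buffers, which shape the size and duration of a calcium transient and serve as markers of interneuron classes and of some principal cells in the hippocampus. Neurocalcin delta (Ncald), visinin-like 1 (Vsnl1), hippocalcin (Hpca), the hippocalcin-like proteins Hpcal1 and Hpcal4, and neuronal calcium sensor 1 (Ncs1) belong to the neuronal calcium sensor family, most of which carry an N-terminal myristoyl group and move to membranes or bind partners when calcium rises. The members were all probes whose gene name in the array files was 1 of these 9 names, with Ncs1 written there under its older name Freq. They came to 11 probes of 41012, and 9 genes of the 35716 names on the array.

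The RNA came from hippocampal neurons of Sprague-Dawley rat embryos at E18.5, dissociated and grown at high density. From 10 to 13 days in vitro the cultures received for 48 h either vehicle (CTL, 0.1% DMSO per the labels), tetrodotoxin (TTX, 0.5 to 1 μM), a blocker of sodium channels that stops action potentials, or the GABA-A receptor antagonist bicuculline (BC, 20 μM), which removes fast inhibition. Each group had 4 samples, each on its own 1-colour array. The labels name no difference between groups other than the treatment, but they give a vehicle only for CTL. If the TTX and BC samples had another vehicle, its effect cannot be told apart from the treatment in comparisons with CTL. The methods count dishes and RNA samples as replicates without tying each RNA sample to a culture of its own, and all p-values therefore describe the spread among arrays, which may be technical. These are bulk samples, so fewer cells of a type and less RNA per cell cannot be told apart.

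Between 74.1% and 78.1% of probes were well above background on each array, and precision is limited by the number of arrays. Each of 4 slides carried a CTL, a TTX and a BC array, and by their deviations from the group means slides 1 and 3 formed 1 set and slides 2 and 4 another. Arrays of different groups deviated together within a set (r = 0.20 to 0.41) and in opposite ways between sets (r = -0.39 to -0.20). The sets were drawn from these same deviations, which cancel over a group, so these signs are no separate evidence for the sets. Markers of all neurons were well above background, and Rbfox3, a nuclear RNA-binding protein of mature neurons, read 14.23 to 14.33 on the log2 scale in CTL. The microglial markers Aif1 and Itgam were not well above background on any array. All 11 member probes were well above background on all 12 arrays and none was saturated.

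The probe sequences are shown for the genes on which the comparison of close relatives rests, because the sensors are paralogs and a shared stretch could mix their signals. They are written 5′ to 3′ as the array files give them, and the capitals mark a complete EF-hand loop found in an open reading frame of the probe. Positions are on rat build rn4, from the array files.

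Ncald: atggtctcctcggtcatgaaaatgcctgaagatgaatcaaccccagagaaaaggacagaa
Vsnl1: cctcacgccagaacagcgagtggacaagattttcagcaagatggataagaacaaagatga
Hpcal4: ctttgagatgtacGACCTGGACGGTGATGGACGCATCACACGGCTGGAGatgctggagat
Ncs1: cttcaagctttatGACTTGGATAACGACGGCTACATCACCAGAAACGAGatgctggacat

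The Ncald probe A_44_P213426 lies at chr7:72881784-72881843 on the minus strand, and the Vsnl1 probe A_42_P832417 at chr6:34771204-34771263 on the minus strand. The Hpcal4 probe A_44_P538538 lies at chr5:142496121-142496180 and the Ncs1 probe A_44_P367110 at chr3:10345782-10345841, both on the plus strand. In the Hpcal4 and Ncs1 probes the loop took 36 of the 60 bases, from base 14 to base 49. Even these probes shared no run of more than 13 bases with a probe of any other gene on the array. Over all 11 member probes the longest such run was 15 bases, for Calb2. These runs count identical bases between probes, not between whole transcripts.

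Levels are given below as log2 of the quantile-normalized signal, for the brightest probe of a gene, and changes as log2 fold changes with their standard error (SE) and limma's p adjusted over all probes by the Benjamini-Hochberg method. A gene was called when its adjusted p was under 0.05 and it changed at least 1.5-fold. With TTX 4 of the 9 genes were called against CTL: Pvalb, Ncald and Vsnl1 fell and Calb2 rose. Of all 35713 genes tested, 4.17% were called in that comparison, 2.69% lower and 1.48% higher. With BC 3 of the 9 were called: Ncald rose, while Calb2 and Hpca fell. The background there was 3.60% of 35711 genes, 2.14% higher and 1.47% lower. Shares over all genes, here and below, include genes not well above background, whereas all members were above it. They are therefore not a like-for-like baseline, and the share among detected genes is not given here. The median log2 fold change of the 9 genes was -0.46 with TTX, beside 0.01 over all genes, and 0.01 with BC, beside -0.01 over all genes.

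**Figure D1:**
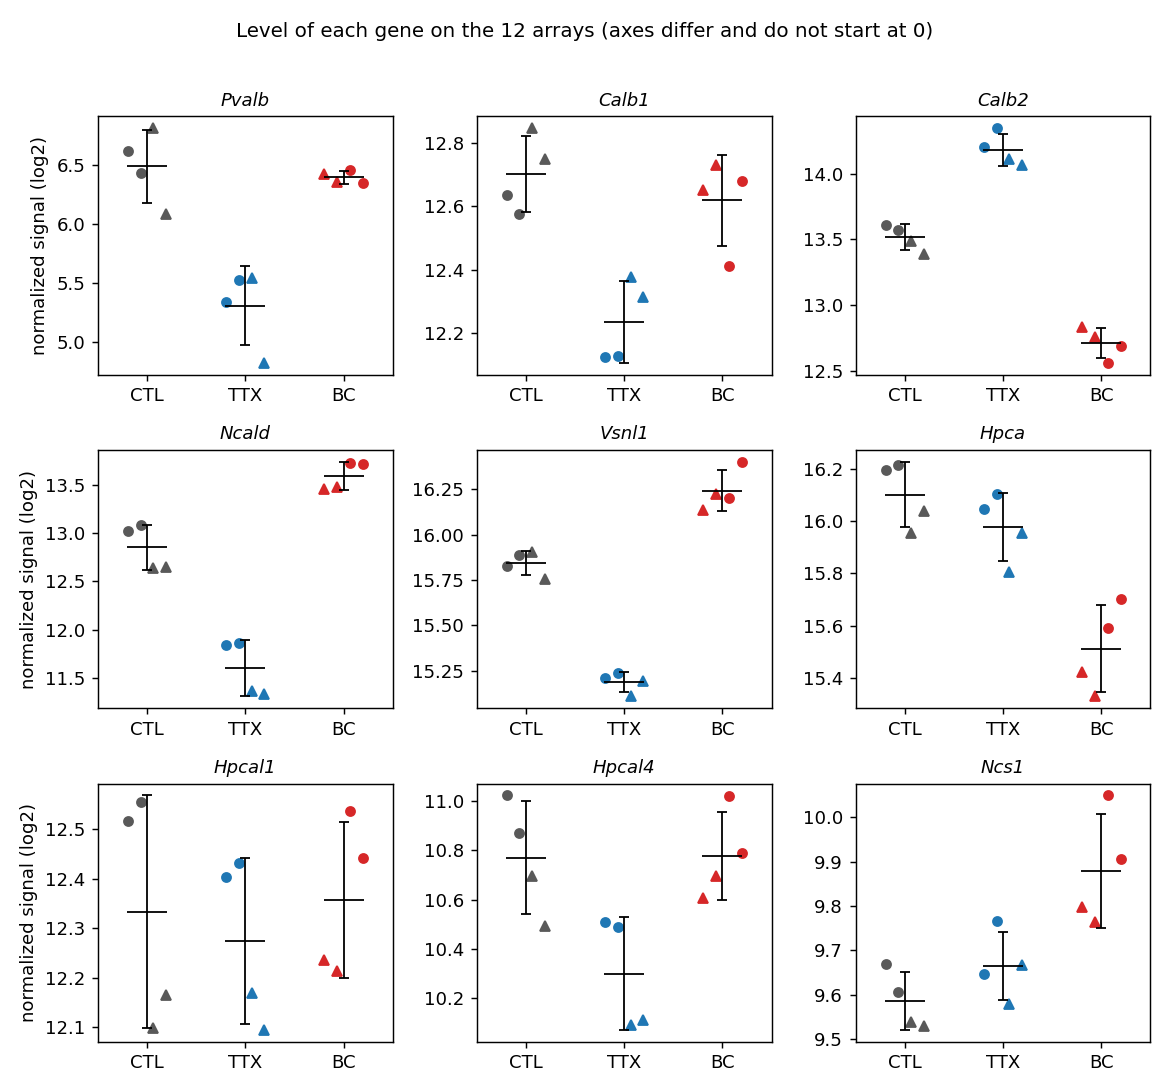
Normalized signal (log2) of the brightest probe of each of the 9 genes on the 4 arrays of CTL, TTX and BC, with circles for slides 1 and 3, triangles for slides 2 and 4, and the group mean ± SD in black. Calb2, Ncald and Vsnl1 separate all 3 groups, Pvalb and Calb1 are lower on every TTX array than on every other array, and Hpca is lower on every BC array.

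Among the buffers, Pvalb, the marker of fast-spiking basket and axo-axonic interneurons, fell with TTX. Its 4 CTL arrays read 6.62, 6.43, 6.81 and 6.08, the TTX arrays 5.34, 5.53, 5.54 and 4.83, and the BC arrays 6.42, 6.35, 6.45 and 6.34. Every TTX array lay below every CTL and BC array, and the BC arrays lay inside the range of CTL. The change with TTX was -1.18 (SE 0.177, adjusted p = 0.0020), a level 2.26-fold lower. With normexp background correction, which adds an offset of 50 to every signal, its change was -0.57 (adjusted p = 0.00118), short of 1.5-fold, and the call ended. It was -0.62 with the median signal (adjusted p = 0.00114) and -0.61 with the deposited values (adjusted p = 0.00118), both still called, so the size of the Pvalb change depended on the background handling. With BC the change was -0.09 (95% interval -0.48 to 0.30, adjusted p = 0.894).

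Calb2 moved the opposite way. The CTL arrays read 13.61, 13.57, 13.49 and 13.39, the TTX arrays 14.20, 14.35, 14.11 and 14.07, and the BC arrays 12.83, 12.76, 12.56 and 12.69. The 3 groups did not overlap, with TTX highest and BC lowest. The level rose by 0.67 with TTX (SE 0.0845, adjusted p = 0.000714), or 1.59-fold, and fell by 0.80 with BC (SE 0.0845, adjusted p = 0.000268), or 1.75-fold. Calretinin marks a class of hippocampal interneurons, immature granule cells and, in some rodent species, mossy cells, and no label says which cells carried it here.

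Calb1, which marks dentate granule cells, some CA1 pyramidal cells and some interneurons, was lower with TTX without reaching 1.5-fold. The CTL arrays read 12.64, 12.58, 12.85 and 12.75 and the TTX arrays 12.13, 12.13, 12.38 and 12.32, so the groups did not overlap. The change was -0.46 (SE 0.0947, adjusted p = 0.0107) and the gene was not called. The BC arrays read 12.65, 12.73, 12.41 and 12.68, and the change with BC was -0.08 (95% interval -0.29 to 0.13). The Calb1 probe covers 209 bases of the genome at chr5:30475783-30475991 with its 60 bases, so its sequence is not contiguous there.

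The array holds 3 further probes under the name M31178, described in the files as rat calbindin D28 mRNA, which the name rule did not take. They lie on the same strand of chromosome 5, from chr5:30479753 to chr5:30480409, and were looked at after the member values were seen. Their changes with TTX were -0.52 (adjusted p = 0.000739, not called), -1.01 (adjusted p = 7.01e-05, called) and -0.94 (adjusted p = 0.000214, called). With BC none of the 3 was called, with changes from -0.11 to 0.08. The signal of probe A_44_P621980 over that of the Calb1 probe was lower with TTX by a log2 difference of -0.54 (exact permutation test, two-sided, p = 0.0286, the smallest that 4 against 4 arrays allow, and 0.0857 adjusted over the 3 probes). For A_44_P118625 that difference was -0.48 (exact permutation p = 0.0571, adjusted 0.0857) and for A_44_P118630 it was -0.05 (exact permutation p = 0.629, adjusted 0.629).

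Among the sensors, Ncald fell with TTX and rose with BC. Neurocalcin delta binds clathrin and actin and takes part in endocytosis. The brightest probe, A_43_P10560, read 13.02, 13.08, 12.64 and 12.65 in CTL, 11.84, 11.86, 11.36 and 11.33 with TTX, and 13.46, 13.48, 13.72 and 13.71 with BC. Every BC array lay above CTL and every TTX array below it. The level fell by 1.25 with TTX (SE 0.157, adjusted p = 0.000668), or 2.38-fold, and rose by 0.74 with BC (SE 0.157, adjusted p = 0.0147), or 1.67-fold. The probe whose sequence is shown above gave -1.27 with TTX (adjusted p = 4.69e-05) and 0.95 with BC (adjusted p = 0.000314). A dim probe for a transcript fragment described as neurocalcin delta, TC647228, was well above background on 8 of the 12 arrays and was not called (-0.04 with TTX and -0.25 with BC). It was outside the name rule and was chosen after its values were seen.

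Vsnl1, a sensor that raises the surface level of some nicotinic and other receptors and modulates guanylyl cyclase, lay in the same order. It read 15.83, 15.89, 15.90 and 15.76 in CTL, 15.21, 15.23, 15.11 and 15.20 with TTX, and 16.14, 16.22, 16.20 and 16.40 with BC. The 3 groups did not overlap, with BC highest and TTX lowest. The change with TTX was -0.66 (SE 0.0675, adjusted p = 0.000198), 1.58-fold lower. With BC it was 0.40 (SE 0.0675, adjusted p = 0.00457), which passed the p threshold but not the fold threshold, so Vsnl1 was not called. The other probe, shown above, gave -0.79 with TTX (adjusted p = 0.000187, called) and 0.39 with BC (adjusted p = 0.0134, not called).

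**Figure D2:**
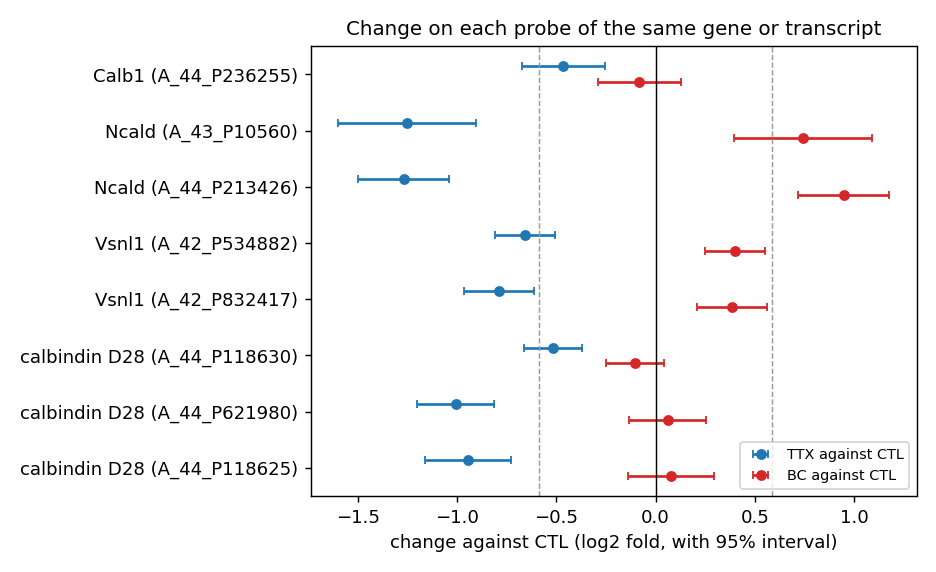
Log2 fold change against CTL with its 95% interval for TTX (blue) and BC (red) on each probe of Calb1, Ncald, Vsnl1 and calbindin D28 (the probes named M31178), with dashed lines at 1.5-fold. Both Ncald probes lie near -1.25 with TTX and above 0.7 with BC, both Vsnl1 probes run the same way, and the calbindin probes range from -0.46 to -1.01 with TTX.

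Hpca, the sensor most abundant in hippocampal pyramidal neurons and a mediator of the slow afterhyperpolarization, was the only sensor called lower with BC. Its CTL arrays read 16.20, 16.22, 15.96 and 16.04, the TTX arrays 16.05, 16.10, 15.80 and 15.95, and the BC arrays 15.43, 15.33, 15.59 and 15.70. The BC arrays lay below all others, while TTX and CTL overlapped. The change with BC was -0.59 (SE 0.101, adjusted p = 0.0050), 1.50-fold lower and barely past the fold threshold. The call ended with the 75th percentile as scaling (-0.58), and without CTL replicate 1 (-0.56), CTL replicate 2 (-0.55), BC replicate 1 (-0.56) or BC replicate 2 (-0.53), each with an adjusted p of 0.019 or less. With TTX the change was -0.12 (95% interval -0.35 to 0.10, adjusted p = 0.560).

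Ncs1, which modulates transmitter release, Kv4 channels and phosphatidylinositol 4-kinase, read 9.67, 9.61, 9.54 and 9.53 in CTL, 9.65, 9.77, 9.58 and 9.67 with TTX, and 9.80, 9.76, 10.05 and 9.91 with BC. The BC arrays lay above those of CTL. The change with BC was 0.29 (SE 0.0740, adjusted p = 0.0346), short of 1.5-fold, and with TTX it was 0.08 (95% interval -0.09 to 0.24).

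The hippocalcin-like sensors were not called. Hpcal4 read 11.02, 10.87, 10.70 and 10.49 in CTL, 10.51, 10.49, 10.09 and 10.11 with TTX, and 10.61, 10.70, 11.02 and 10.79 with BC. Its change with TTX was -0.47 (SE 0.145, adjusted p = 0.0695), and the differences within slides ran from -0.58 to -0.36. With slide as a block the adjusted p for Hpcal4 was 0.00225 and with slide set as a block 0.00153, in both cases short of 1.5-fold. The slide sets were drawn from these same arrays, so p from fits that use them, here and below, can be too small. With averaged arrays the adjusted p for Hpcal4 was 0.0701. With BC the change was 0.01 (95% interval -0.31 to 0.33). Hpcal1 read 12.52, 12.55, 12.10 and 12.16 in CTL, and its changes were -0.06 with TTX (95% interval -0.35 to 0.23) and 0.02 with BC (95% interval -0.27 to 0.31). On their brightest probes Hpcal1, Hpcal4, Hpca and Ncald were higher on slides 1 and 3 than on slides 2 and 4. The sets did not overlap in any group. On the other Ncald probe they overlapped in CTL. As the sets were drawn from these data, part of this separation may be built in. For Hpcal1 the gap between the sets was 0.40 in CTL, 0.29 with TTX and 0.26 with BC, larger than either of its treatment changes.

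**Figure D3:**
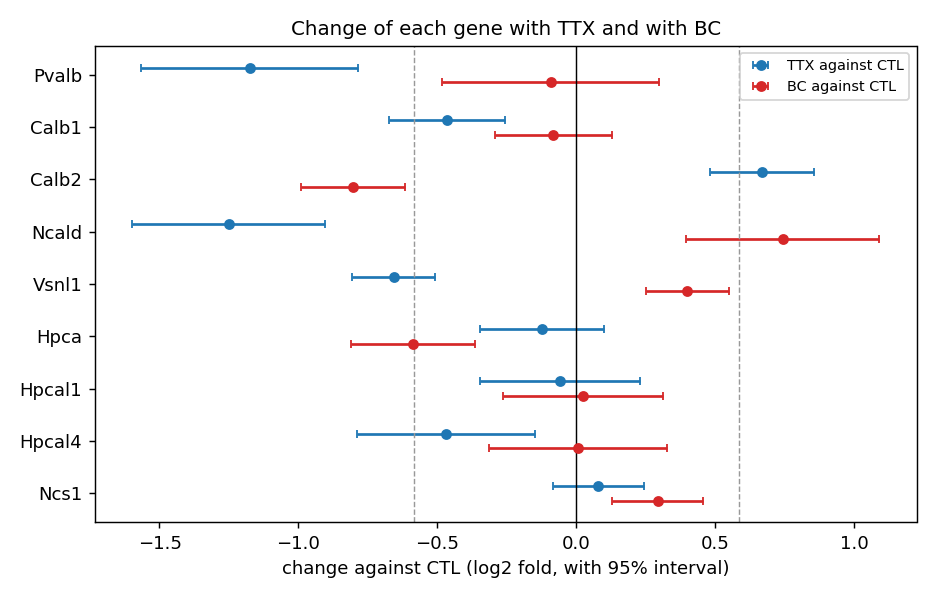
Log2 fold change of the 9 genes with TTX (blue) and BC (red) against CTL, with 95% intervals from limma and dashed lines at 1.5-fold. Both comparisons use the same 4 CTL arrays; Calb2 lies right of 0 with TTX and left with BC, and Ncald and Vsnl1 the other way round.

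Because both treatments were set against the same control arrays, TTX and BC were also compared directly. Of the 9 genes 4 were called, 3 lower and 1 higher with TTX, beside 10.9% of all genes, 6.19% lower and 4.68% higher. Ncald differed most, 1.99 lower with TTX than with BC on the log2 scale (log2 fold change -1.99, SE 0.157, adjusted p = 7.02e-06). Calb2 was 1.47 higher with TTX (SE 0.0845, adjusted p = 9.09e-07). Pvalb gave -1.08 (adjusted p = 0.00115) and Vsnl1 -1.06 (adjusted p = 1.81e-06). For Pvalb the call ended with normexp (-0.49), with the median signal (-0.55) and with the deposited values (-0.55). Hpca (0.46, adjusted p = 0.00651), Calb1 (-0.38, adjusted p = 0.0132) and Hpcal4 (-0.48, adjusted p = 0.0345) passed the p threshold without reaching 1.5-fold. Ncs1 gave -0.21 (adjusted p = 0.0592) and Hpcal1 -0.08 (95% interval -0.37 to 0.21).

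Within each slide 1 array of each group can be set against another. In every called comparison the groups did not overlap, so any pairing of arrays gives the called direction. The sign on each slide is therefore no separate check, and the slides show only how even the changes were. With TTX the differences ran from -1.98 to -0.54 for Pvalb, from 0.58 to 0.74 for Calb2, from -1.31 to -1.16 for Ncald and from -0.71 to -0.59 for Vsnl1. With BC they ran from -1.05 to -0.55 for Calb2, from 0.63 to 0.83 for Ncald and from -0.62 to -0.51 for Hpca. Pvalb was the most uneven with TTX, and with BC its slides fell on both sides of 0, from -0.46 to 0.34. Over the slide sets, the Pvalb change with TTX was -1.09 on slides 1 and 3 and -1.26 on slides 2 and 4, and the Calb2 change with BC was -0.97 and -0.64.

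With each group's 2 arrays per slide set averaged, which leaves 2 residual degrees of freedom, Calb2 (adjusted p = 0.0909) and Vsnl1 (adjusted p = 0.0513) were no longer called with TTX, while Pvalb and Ncald were (adjusted p = 0.0457 each). No BC call remained: Calb2 had an adjusted p of 0.0943, Ncald 0.0804 and Hpca 0.0710, and 5 of the 9 genes had an unadjusted limma p under 0.05. All 4 calls of TTX against BC remained, with adjusted p from 0.0129 to 0.0166.

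**Figure D4:**
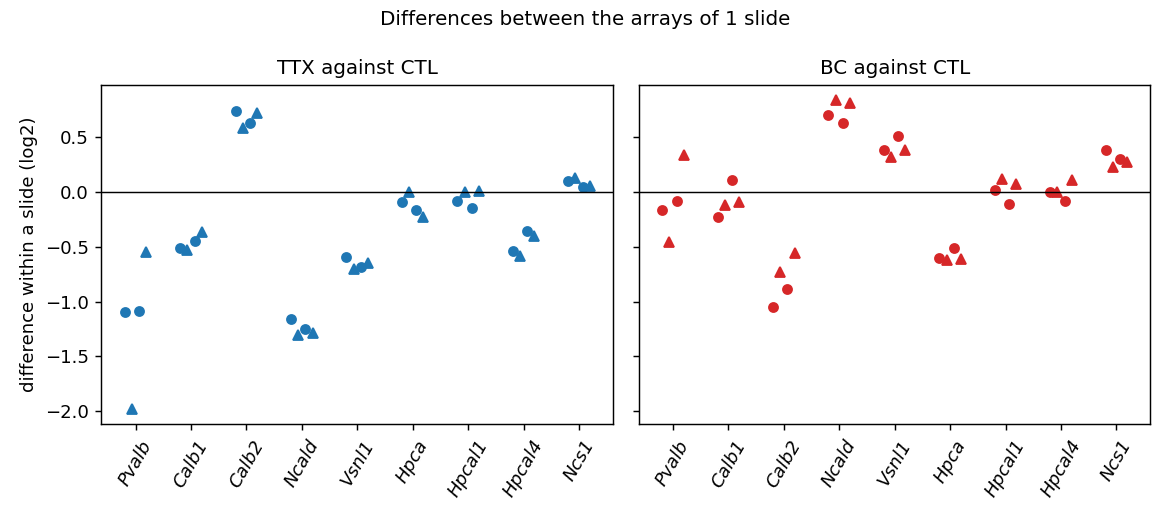
Log2 difference between the TTX and CTL arrays (left) and the BC and CTL arrays (right) of the same slide for the 9 genes, with circles for slides 1 and 3 and triangles for slides 2 and 4. The 4 slides agree closely for Ncald and Vsnl1, while the Pvalb differences with TTX spread from -1.98 to -0.54.

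Markers of interneurons, which several of these proteins label, moved with TTX as well. Of 16 interneuron marker genes other than the members, 11 were called lower with TTX and 0 higher, with a median change of -0.96. Gad1 and Gad2, the enzymes that make GABA, changed by -1.56 (adjusted p = 8.13e-07) and -1.33 (adjusted p = 2.62e-05), and the peptide gene Sst by -1.69 (adjusted p = 4.47e-06). The summed signal of the list, on the linear scale, was 344975 to 397880 in CTL, 142505 to 149949 with TTX and 456389 to 526155 with BC. With BC 3 of the 16 were called higher and 0 lower. All 16 were well above background on at least 1 array. The part of interneuron number or RNA content in the changes of Pvalb, Calb1, Calb2, Ncald and Vsnl1 was not tested.

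Of 8 measured markers of glutamatergic neurons, 2 were called higher with TTX and 2 lower with BC. Their summed signal was 35422 to 44546 in CTL, 53048 to 59945 with TTX and 25474 to 30953 with BC, the order in which Calb2 lay. Slc17a7, the vesicular glutamate transporter of cortical and hippocampal principal cells, was not called (0.18 with TTX and -0.29 with BC). None of the 7 markers of all neurons and none of the 7 astrocyte markers was called by limma in either comparison with CTL. At an unadjusted p under 0.05 there were 3 of the neuronal markers with TTX and 2 with BC, and 1 of the astrocyte markers with TTX and 0 with BC. Rbfox3 changed by -0.15 with TTX (adjusted p = 0.159), and the astrocyte filament gene Gfap read 11.13 to 11.64 in CTL and 11.13 to 11.62 with TTX. Of 8 markers of the oligodendrocyte lineage limma called 1 higher and 1 lower with TTX and 0 with BC, where 0 had an unadjusted p under 0.05. Of 6 measured microglial markers 0 were called or had an unadjusted p under 0.05, and of 6 measured vascular and fibroblast markers 1 was called lower with TTX and 2 higher with BC. The part of these markers in the members' changes was not tested.

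A list of 35 other EF-hand genes served as a comparison, of which 33 were measured by name. With TTX 2 of the 33 were called lower and 0 higher, and with BC 1 was called higher and 0 lower, while the median changes were -0.05 and 0.04. In each of these comparisons with CTL 5 of the 33, called genes included, passed the p threshold. For TTX against BC 14 passed it and 9 were called, 2 higher and 7 lower with TTX. The 2 called lower with TTX against CTL were Kcnip1 and Kcnip3, subunits of Kv4 potassium channels that belong to the wider sensor family. Kcnip3 read 8.26 to 8.65 in CTL, 7.53 to 7.69 with TTX and 8.34 to 8.68 with BC, a change with TTX of -0.83 (adjusted p = 0.0004). Kcnip1 changed by -0.93 (SE 0.253, adjusted p = 0.0430), and its adjusted p ran up to 0.118 when single arrays were left out, while with slide as a block it was 0.00054. The gene higher with BC was Scgn, secretagogin, a buffer-like sensor of neuroendocrine and some olfactory and hippocampal cells. It read 8.07 to 8.26 in CTL and 8.73 to 9.02 with BC, a change of 0.66 (adjusted p = 0.000841), and 0.02 with TTX (adjusted p = 0.974).

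Over the 12 arrays, which hold 3 groups and so share the treatment pattern, Ncald and Vsnl1 ran closest together among the 9 genes (Pearson r = 0.98), and Calb2 ran opposite to both (r = -0.92 with Ncald and -0.95 with Vsnl1). Of 11453 other named genes well above background on every array, those most like Ncald were Gpc4 and Colq (r = 0.99 each), and those most like Vsnl1 were the neuropeptide gene Npy and Tpbg (r = 0.99 each). Kat6a and Tox3 were most like Calb2 (r = 0.99 each), Celsr1 (r = 0.98) and Faah (r = 0.97) most like Hpca, and Ppm1n (r = 0.97) and RT1-CE16 (r = 0.96) most like Pvalb. These values describe likeness over the same arrays.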

How the data were processed

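The authors labelled RNA from each sample and read it on a 1-colour Agilent rat array. The deposited scanner files, written by Feature Extraction 9.5.1.1 per the file headers, hold for each spot a background-corrected intensity. A deposited table of log2 values, made by the authors with limma per the submitters' processing notes, has column medians of 7.37 to 7.38; its exact scaling is not given in the sources used here, and 1131 of its values are empty for BC replicate 2. It served as an alternative.

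Control spots and outlier spots (13 to 40 per array) were left out, log2 intensities were quantile-normalized over the 12 arrays, and all probes were fitted with limma 3.58.1 (R 4.3.3) with a mean for each group, since the study's methods name quantile normalization and limma. A call needed an adjusted p under 0.05 and a ratio of 1.5 or more, or 0.667 or less. The brightest probe stood for a gene. The fit was also run on simulated data with known changes and independent noise on each array. Those data held no slide sets, so the run could not test how shared deviations within a set affect the calls. Named were the 9 members, EF-hand genes called against CTL, the 2 genes most correlated with each called member, and Gad1, Gad2, Sst, Slc17a7, Rbfox3 and Gfap. Members and lists were chosen with earlier results of these data known, as were the slide sets. Probe names were updated through accession (10813), symbol (5133) or synonym (3455), and 21611 kept the file's name.

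Samples with the same replicate number deviated together for TTX and CTL (r = 0.28 to 0.38). They deviated in opposite ways for BC and CTL (r = -0.35 to -0.24) and for TTX and BC (r = -0.38 to -0.28). Same-numbered TTX and CTL samples shared a slide set, and the BC samples of those numbers lay in the other set. The ranges found within and between slide sets include these same pairs, so these values had to lie inside them. Pairing by number beyond the sets was not tested. No label explains the sets. The labels give the vehicle as DMSO, while the methods name water for this comparison. Alternatives were other background corrections and scalings, probe filters, slide and replicate blocks, other probe summaries and leaving out each array.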

Additional observations from a re-analysis of the deposited data

Results flagged for a closer look

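The Vsnl1 probe A_42_P832417 read 13.78 in TTX replicate 1, while the other 3 TTX arrays read 13.68 to 13.69. Its gap to the nearest of them was a share of 0.871 of the group's range, above Dixon's critical value for 4 arrays. The whole range of the group was 13.68 to 13.78, and the brightest Vsnl1 probe showed no such gap. Of 33 sets of 4 arrays tested, 1 met this criterion, and chance gives about 1 in 20.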

How the results depend on the processing

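Over 26 alternatives, 671 of 702 values of the 9 genes kept their direction and whether they were called at both thresholds together, 20 lost a call, 11 turned sign and 0 gained a call. Many alternatives, such as the blocks, averaged arrays, only the compared groups and leaving out an array of the third group, leave the estimate unchanged by design. In those the direction could not turn, and a value short of 1.5-fold could not gain a call, so the tally overstates stability. Values short of 1.5-fold could cross the p threshold alone, as Calb1 with TTX (0.0620 with averaged arrays) and Vsnl1 with BC (0.215 with the replicate block in only the compared groups). With TTX against CTL, 2 genes were called with the arrays of a slide set averaged, and 4 (4 to 4) when single arrays were left out. With BC against CTL, 0 were called with averaged arrays and 2 to 3 without single arrays. TTX against BC kept 4 calls without single arrays. Without a fold threshold the counts were 5, 5 and 7. The share of all genes called is not given for any alternative, so these counts have no baseline.

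The replicate block over all groups kept 4, 3 and 4 calls. With only the compared groups in the fit, an alternative chosen after seeing the data, it kept 4 with TTX (adjusted p from 0.0126 for Ncald to 0.0148 for Vsnl1) and 4 for TTX against BC, and 0 with BC, where same-numbered samples deviate in opposite ways (Calb2 0.0506, Ncald 0.179, Hpca 0.181; 5 of the 9 genes had an unadjusted p under 0.05). Of 12 arrays, 2 correlated best with an array of their own number.

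Hpca with BC was not called with normexp (-0.56), the median signal (-0.55), the 75th percentile (-0.58) or the deposited values (-0.49). Pvalb lost its call with normexp (-0.57 against CTL). Kcnip1 with TTX had an adjusted p of 0.0622 with the 75th percentile, 0.0858 with a random block, 0.108 with the replicate block and 0.0664 with only the compared groups, but 0.00054 with slide as a block, 7.69e-05 with slide set as a block, 0.0457 with averaged arrays and 0.0147 with the replicate block in only the compared groups. Kcnip3 had 0.0562 with averaged arrays, and Scgn with BC 0.0722; Scgn fell short of 1.5-fold with normexp (0.56) and the median signal (0.57). The causes were not tested.

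Uncalled values near 0 turned sign. Without single arrays Hpcal1 ran from -0.14 to 0.014 with TTX and from -0.055 to 0.097 with BC, Hpcal4 from -0.085 to 0.092 with BC, Pvalb from -0.23 to 0.014 with BC, Scgn from -0.027 to 0.052 with TTX, Gfap from -0.11 to 0.11 with TTX and from -0.17 to 0.061 with BC, Sst from -0.027 to 0.11 with BC, Rbfox3 from -0.043 to 0.033 with BC and A_44_P118625 from -0.0074 to 0.13 with BC. With the median signal and the deposited values Scgn with TTX was -0.0085 and -0.0077, and Gfap with TTX 0.0017 and 0.0023. With the 75th percentile Gfap was 0.0060 with TTX and Sst -0.0025 with BC, and with the deposited values Rbfox3 was 0.029 with BC.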
